A study of Rattus norvegicus with 8 samples.

Results

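The rat miRNAs miR-188-5p, miR-1224, miR-296-5p and miR-211-3p were followed across the renal cortex of operated and treated male rats. They are 4 of the 758 rat miRNAs on the array and were chosen by name, because earlier results of the same data showed lower values after nephrectomy or after vesicle treatment. No cut-off value set the choice. On the main scale, all 4 lay lower in nephrectomized than in sham-operated rats, higher than after nephrectomy alone in the rats given deoxycorticosterone acetate and salt, and lower again where vesicles were added. The rise of miR-188-5p with hormone, salt and intravenous vehicle over nephrectomy alone passed a test, but on arrays that the choice had also used. It no longer passed under 14 of 23 alternative settings. miR-1224 stood clearly above background on all 8 arrays, whereas the signal of the other 3 stayed close to it.

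RNA of the renal cortex was hybridised to 8 one-colour Agilent miRNA arrays, 2 in each of 4 groups. SHAM rats were sham-operated and ate a standard sodium diet (0.5%). UNX rats were nephrectomized, ate a diet with 0.5% sodium and received soybean oil under the skin. DOCA rats were nephrectomized, ate a diet with 1.5% sodium, received deoxycorticosterone acetate in soybean oil under the skin at 8 mg/kg 2 times a week, and had weekly intravenous vehicle from week 2. DOCA-EVs rats had the same operation, diet and hormone, with weekly intravenous ASC-EVs (extracellular vesicles of adipose mesenchymal cells) from week 2 in place of the vehicle. Nephrectomy was thus shared by UNX, DOCA and DOCA-EVs. UNX, with its soybean oil, is called nephrectomy alone here. The oil is named here for the nephrectomized groups only, so against SHAM its part cannot be told apart from that of nephrectomy. Intravenous injections were described for DOCA and DOCA-EVs only, so against UNX they cannot be told apart from hormone and salt. The labels give both 9 and 8 weeks after nephrectomy as the time of sampling, and no age or strain. The 8 arrays lay on 1 slide with each group in a column of its own, so slide column and group cannot be told apart. The labels name an animal and a replicate number for each array but do not say whether RNA was pooled, so p-values measure only the spread between these arrays, which may be technical.

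A miRNA guides Argonaute proteins to messenger RNAs that pair with its seed, the stretch near its 5′ end, and lowers their translation or stability. Deoxycorticosterone is a mineralocorticoid, which makes the kidney retain sodium. Together with a high sodium diet and the loss of a kidney it raises blood pressure and injures the remaining kidney. In mammals miR-188 is made from a cluster of miRNAs inside Clcn5, the gene of an endosomal chloride and proton exchanger of the proximal tubule. miR-1224 is a mirtron, a hairpin cut out as a short intron. miR-296 belongs to the imprinted Gnas region, and in human endothelial cells it is known to promote the response to angiogenic growth factors. miR-211 lies in Trpm1, a cation channel gene of melanocytes and retinal bipolar cells. The main product of its hairpin in human melanocytes is the 5p arm, which shares its seed with miR-204, whereas the miRNA followed here is the 3p arm.

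The mature sequences are shown because the array probes read these strands, and because their base composition is compared with the measured differences further on. They come from RefSeq on GRCr8, run 5′ to 3′, and have the seed (bases 2 to 8) in capitals.
rno-miR-188-5p: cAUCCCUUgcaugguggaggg
rno-miR-1224: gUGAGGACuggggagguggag
rno-miR-296-5p: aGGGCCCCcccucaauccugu
rno-miR-211-3p: gGCAAGGAcagcaaaggggg
rno-miR-211-5p: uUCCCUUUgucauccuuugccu

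The last line is the opposite arm of the miR-211 hairpin, given to show that the 3p arm carries another seed. The 4 seeds differ from each other, and in the RefSeq table no other rat miRNA has any of them, whereas the seed of miR-211-5p is that of miR-204-5p. On GRCr8, miR-188-5p lies at chrX:17919595-17919615 on the plus strand, within the span of Clcn5, and the hairpins Mir532, Mir362, Mir501 and Mir500 lie within 20 kb on the same strand. miR-1224 lies at chr11:93811355-93811375 on the minus strand, within Vwa5b2. miR-296-5p lies at chr3:183470114-183470134 on the minus strand, in no annotated host gene, with Mir298 within 20 kb. miR-211-3p lies at chr1:127189389-127189408 on the plus strand, within Trpm1.

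Levels are given as log2 of the processed signal, with each array divided by its 75th percentile over the 271 probes detected on all arrays, and with the probes of a miRNA summed. Levels of different miRNAs are not set against each other, since probes differ in brightness. A miRNA was taken to exceed background where the software flagged a share of 0.5 or more of the spots of any probe as well above it. By the software's own call, all 4 miRNAs were detected on all 8 arrays, and all 4 were among the 242 miRNAs of the fit.

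The level of miR-1224 was 10.44 and 10.57 in SHAM replicates 1 and 2, 9.99 and 9.98 in UNX, 10.19 and 10.55 in DOCA, and 9.98 and 9.996 in DOCA-EVs. Group means were 10.50 ± 0.09 for SHAM, 9.99 ± 0.01 for UNX, 10.37 ± 0.25 for DOCA and 9.99 ± 0.01 for DOCA-EVs (SD, n = 2 each). SHAM and DOCA overlapped at the top, and UNX and DOCA-EVs overlapped below them. All 128 spots of miR-1224 were well above background, and the standard error of its unscaled signal over spots was 0.582% to 1.37% of the signal.

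The level of miR-188-5p was 4.83 and 4.80 in SHAM, 4.47 and 4.16 in UNX, 5.41 and 5.47 in DOCA, and 4.79 and 4.80 in DOCA-EVs. Group means were 4.82 ± 0.02, 4.32 ± 0.21, 5.44 ± 0.04 and 4.80 ± 0.01 in the same order (SD, n = 2 each). DOCA stood alone at the top and UNX at the bottom, with SHAM and DOCA-EVs at nearly the same level between them. miR-188-5p was above background on both DOCA and both DOCA-EVs arrays and on no SHAM or UNX array. Of its 32 spots a group, 22 were well above background in DOCA and 10 in DOCA-EVs, against 6 in SHAM and 1 in UNX.

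The level of miR-211-3p was 5.27 and 4.97 in SHAM, 4.69 and 4.62 in UNX, 5.33 and 5.59 in DOCA, and 4.91 and 4.98 in DOCA-EVs. Group means were 5.12 ± 0.22, 4.66 ± 0.05, 5.46 ± 0.18 and 4.94 ± 0.05 (SD, n = 2 each). The order of the groups was that of miR-188-5p, but SHAM and DOCA-EVs overlapped, and DOCA replicate 1 was only 0.05 above SHAM replicate 1. It was above background on 1 SHAM, 0 UNX, 2 DOCA and 2 DOCA-EVs arrays, and 63 of its 128 spots were well above background.

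The level of miR-296-5p was 4.70 and 4.78 in SHAM, 4.32 and 4.34 in UNX, 4.76 and 5.05 in DOCA, and 4.39 and 4.23 in DOCA-EVs. Group means were 4.74 ± 0.06, 4.33 ± 0.02, 4.90 ± 0.21 and 4.31 ± 0.11 (SD, n = 2 each). SHAM and DOCA overlapped, as did UNX and DOCA-EVs, and both of the latter lay below both of the former. It was above background only on DOCA replicate 2 and DOCA-EVs replicate 1, and 18 of its 128 spots were well above background, with 7 in DOCA, 5 in DOCA-EVs and 3 each in SHAM and UNX.

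**Figure D1:**
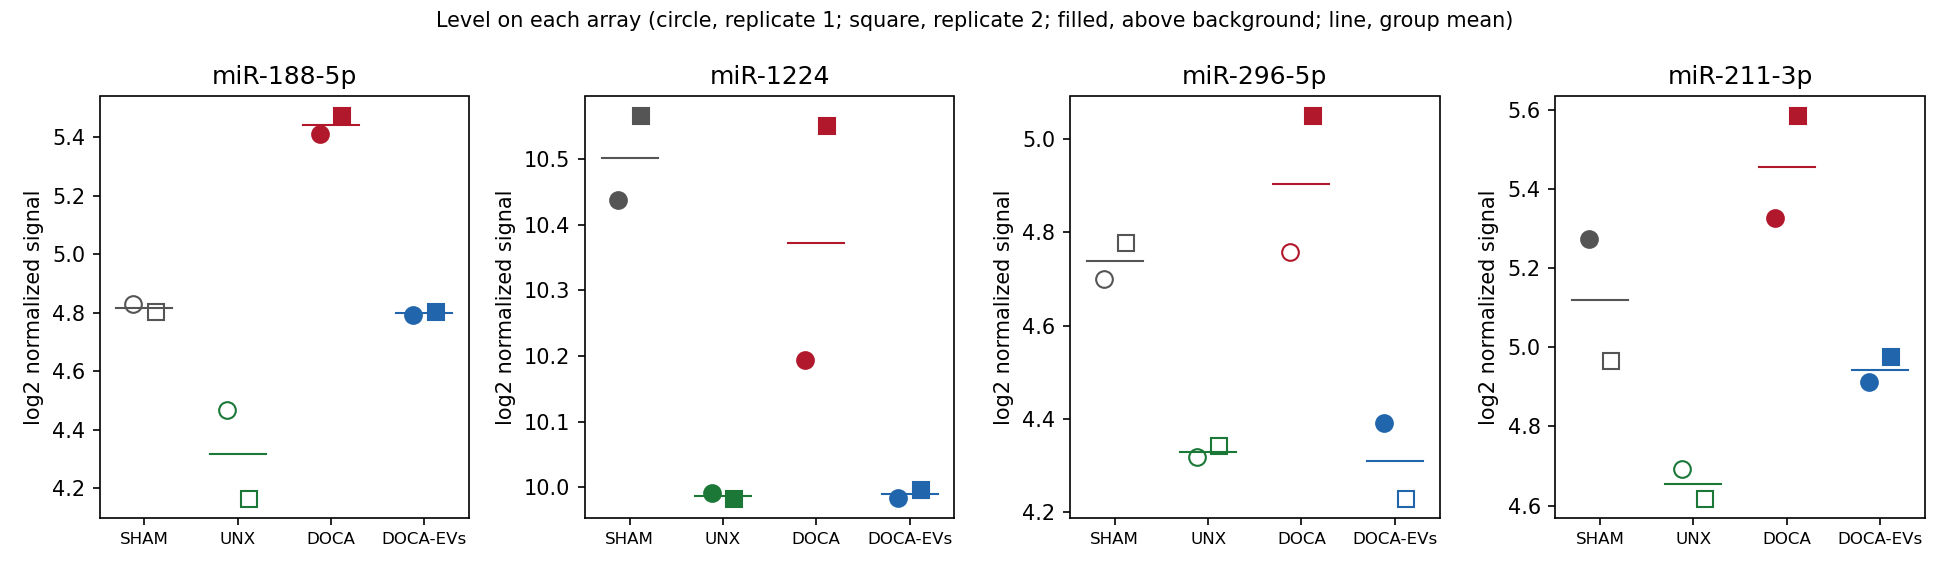
Level of each miRNA on each array (log2 normalized signal, each panel with its own axis that does not start at 0), with a line at each group mean and filled symbols where the miRNA was above background. All 4 panels have UNX below SHAM and DOCA-EVs below DOCA, and only miR-1224 has filled symbols throughout.

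The distance from background was also visible in the single spots. Negative control spots averaged 2.00 to 3.31 units of unscaled signal on the 8 arrays, with an SD of 2.29 to 2.76. The 2 probes of miR-188-5p together gave 28.1 and 25.9 units in SHAM, 26.9 and 21.2 in UNX, 41.3 and 29.4 in DOCA, and 31.1 and 29.5 in DOCA-EVs. For miR-296-5p the sum was 25.6 and 25.4 in SHAM, 24.2 and 23.9 in UNX, 26.3 and 21.9 in DOCA, and 23.5 and 19.8 in DOCA-EVs. Before scaling, therefore, DOCA replicate 1 was the highest array for both, and the other 7 arrays of miR-188-5p lay between 21.2 and 31.1. miR-211-3p gave 38.2 and 29.0 in SHAM, 31.5 and 29.0 in UNX, 39.0 and 31.8 in DOCA, and 33.8 and 33.3 in DOCA-EVs, so that SHAM replicate 2 was as low as the UNX arrays and DOCA replicate 2 was close to them. miR-1224 gave 1368 and 1404 units in SHAM, 1238 and 1196 in UNX, 1137 and 991 in DOCA, and 1137 and 1079 in DOCA-EVs. Its unscaled signal was thus highest in SHAM, and DOCA was not above UNX. The standard error over spots was 3.47% to 6.37% of the sum for miR-188-5p, 3.16% to 5.75% for miR-296-5p and 2.17% to 5.10% for miR-211-3p.

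**Figure D2:**
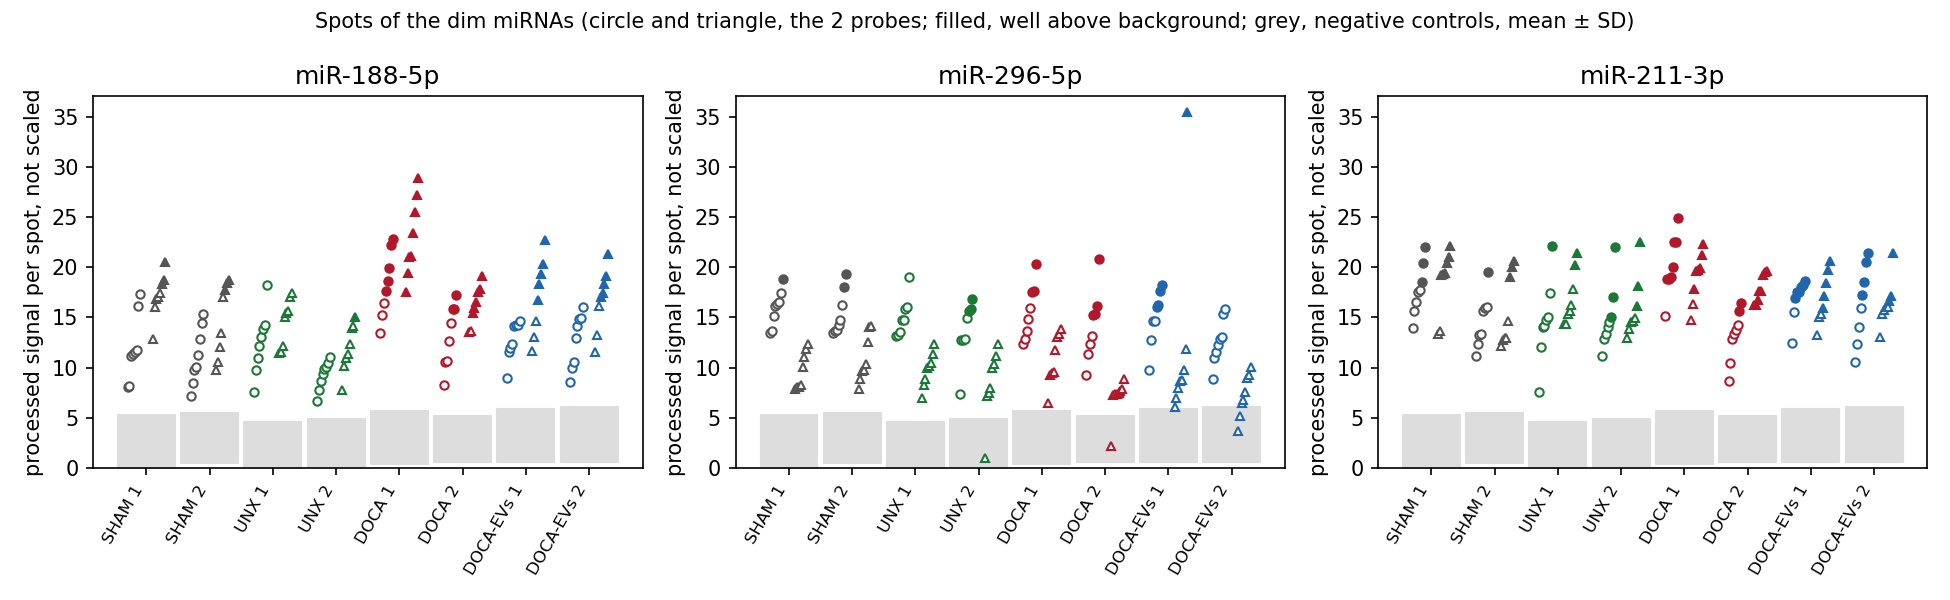
Unscaled processed signal of every spot of the 3 dim miRNAs on each array, outlier-flagged spots included. Circles and triangles stand for the 2 probes of each, filled symbols for spots well above background, and a grey band for the mean ± SD of the negative controls. Nearly all spots lie above the grey band, and filled symbols are most frequent in DOCA, with 22 of 32 spots for miR-188-5p and 23 of 32 for miR-211-3p.

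The first comparison, UNX against SHAM, shows the cortex after loss of a kidney, with soybean oil under the skin, on a standard diet. It was used to choose the miRNAs, so its values are a description without a test. miR-1224 was 0.51 ± 0.15 lower on the log2 scale in UNX (SE of the fit), a fold of 1.43, by 0.45 between replicates 1 and 0.58 between replicates 2. miR-211-3p was at least 1.38-fold lower, with SHAM above background on 1 of its 2 arrays. Here and below, such a bound allows for background only and not for the spread between arrays. For miR-188-5p and miR-296-5p neither group was above background, so no fold is given and only their levels stand. The UNX arrays lay below the SHAM arrays without overlap for 4 of 4 miRNAs, as they did for 47.5% of the 242 miRNAs of the fit. The median difference was -0.48 for the 4 and -0.12 for all 242, and 154 of the 242 were lower in UNX.

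The comparison of DOCA-EVs with DOCA shows the cortex of hormone- and salt-treated rats with and without vesicles, and it too was used in the choice. miR-188-5p was 0.64 ± 0.14 lower on the log2 scale with vesicles, a fold of 1.56, by 0.62 and 0.67 between the arrays of the same number. miR-211-3p was 0.51 ± 0.16 lower, a fold of 1.43, by 0.42 and 0.61. miR-296-5p was at least 1.51-fold lower, with 1 of 2 arrays of each group above background. miR-1224 was 0.38 ± 0.15 lower, a fold of 1.30, by 0.21 and 0.55. Its difference rested on DOCA replicate 2, and without that array it was 0.20. All 4 miRNAs were lower without overlap between the groups, against 11.6% of the 242 miRNAs. The median difference was -0.55 for the 4 and 0.00 for all 242.

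Both comparisons moved with the scale factors of the arrays, which were 0.987 and 0.926 in SHAM, 1.22 and 1.18 in UNX, 0.970 and 0.661 in DOCA, and 1.12 and 1.06 in DOCA-EVs. Without scaling, UNX minus SHAM on the log2 scale was -0.17 for miR-188-5p, -0.19 for miR-1224, -0.08 for miR-296-5p and -0.14 for miR-211-3p, while the median of all 242 miRNAs was 0.19. DOCA-EVs minus DOCA was then -0.20 for miR-188-5p, 0.06 for miR-1224, -0.15 for miR-296-5p and -0.07 for miR-211-3p, with a median of all miRNAs of 0.44. The direction of miR-1224 in this comparison thus turned without scaling. A factor per array shifts all its miRNAs alike except at the floor. A difference taken relative to the median of all miRNAs could thus change more than slightly only under the settings with quantile normalization. For UNX minus SHAM, that relative difference of miR-188-5p was -0.38 on the main scale, -0.15 with quantile normalization and -0.05 with normexp background correction before it. That of miR-1224 was -0.40, -0.45 and -0.42, that of miR-296-5p -0.29, -0.04 and -0.02, and that of miR-211-3p -0.35, -0.16 and -0.05. For DOCA-EVs minus DOCA it was -0.65, -0.66 and -0.12 for miR-188-5p, and -0.39, -0.41 and -0.33 for miR-1224. It was -0.60, -0.62 and -0.08 for miR-296-5p, and -0.52, -0.55 and -0.11 for miR-211-3p. The normexp setting added an offset of 50 units to each signal, which by itself shrinks log2 differences of dim miRNAs. The small normexp values of the 3 dim miRNAs therefore do not show what background correction does. DOCA replicate 2, the array with the lowest factor, also had a low hybridisation control, dmr_3, at 1028 units, as had DOCA-EVs replicate 2 at 1136, against 2200 to 2402 on the other 6 arrays. Neither array entered UNX minus SHAM. Without both of them, DOCA-EVs minus DOCA was -0.62 for miR-188-5p, -0.21 for miR-1224, -0.37 for miR-296-5p and -0.42 for miR-211-3p, with 1 array left in each group.

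**Figure D3:**
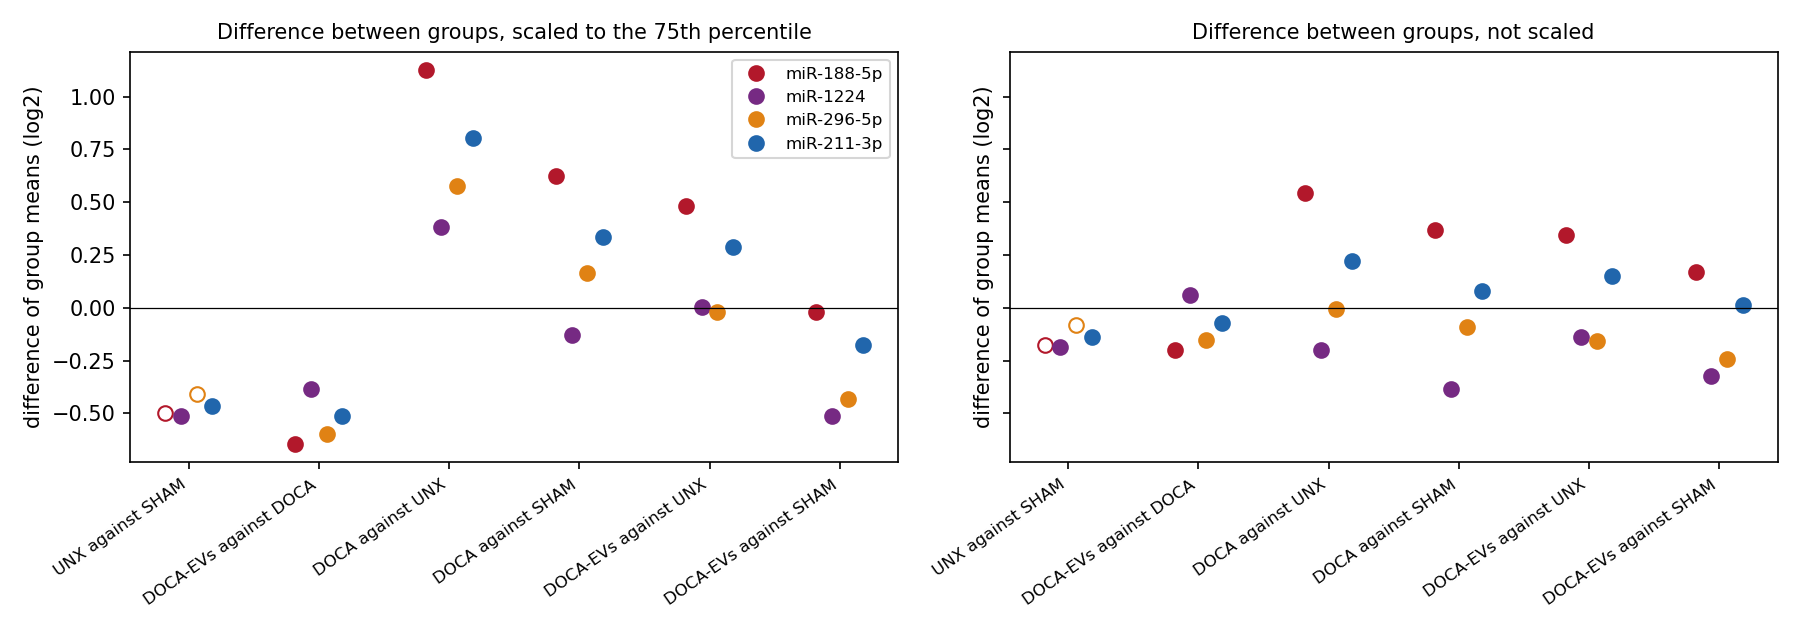
Difference of group means (log2) in the 6 comparisons, scaled to the 75th percentile on the left and unscaled on the right, with open symbols where neither group was above background. Scaled differences of UNX against SHAM and DOCA-EVs against DOCA lie between -0.64 and -0.38, and unscaled ones between -0.20 and 0.06.

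DOCA against UNX compares hormone, salt and intravenous vehicle with nephrectomy alone, so the parts of these treatments cannot be told apart. It did not enter the choice, but it shares its arrays with both comparisons that did, so its values are not independent of them: a low UNX group and a high DOCA group were favoured by the choice. miR-188-5p was 1.13 ± 0.14 higher in DOCA on the log2 scale (95% interval 0.78 to 1.47), by 0.94 and 1.31 between the arrays of the same number, with an adjusted p of 0.0182 by limma over the 242 miRNAs. Since no UNX array was above background, its fold is a bound of at least 2.18. miR-211-3p was at least 1.74-fold higher (difference 0.80 ± 0.16, limma adjusted p = 0.0564) and miR-296-5p at least 1.46-fold higher (0.58 ± 0.15, limma adjusted p = 0.0852). Neither passed the threshold of 0.05, nor did miR-1224, which was 0.38 ± 0.15 higher (limma adjusted p = 0.209) and only 0.21 higher without DOCA replicate 2. So 1 of the 4 miRNAs rose, where 1.24% of the 242 miRNAs were called higher and 1.65% in either direction. The DOCA arrays lay above the UNX arrays without overlap for 4 of 4 and for 31.4% of the 242, and the median difference was 0.69 for the 4 and 0.08 for all 242. As the choice used these arrays, nothing is read from that contrast. Single miRNAs were given no exact permutation test, whose smallest two-sided p with 2 arrays a group is 0.333.

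The call of miR-188-5p was not stable. With 1 array left out in turn, it was lost without any 1 of the SHAM, UNX or DOCA arrays and kept without either DOCA-EVs array. The difference in these fits, each with 1 array in a group, was 0.97 to 1.28 on the log2 scale. Leaving out a SHAM array left the difference at 1.13, and only the spread shared by all groups was estimated anew. Without scaling the difference was 0.54 (limma adjusted p = 0.201), and miR-1224 and miR-296-5p then stood at -0.20 and -0.01, while the median of all 242 miRNAs was -0.50. Relative to the median of all miRNAs, the difference of miR-188-5p was 1.05 on the main scale, 1.00 with quantile normalization and 0.19 with normexp before it. The last value cannot show what background correction does, since the offset of 50 units added with normexp shrinks log2 differences of dim miRNAs.

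**Figure D4:**
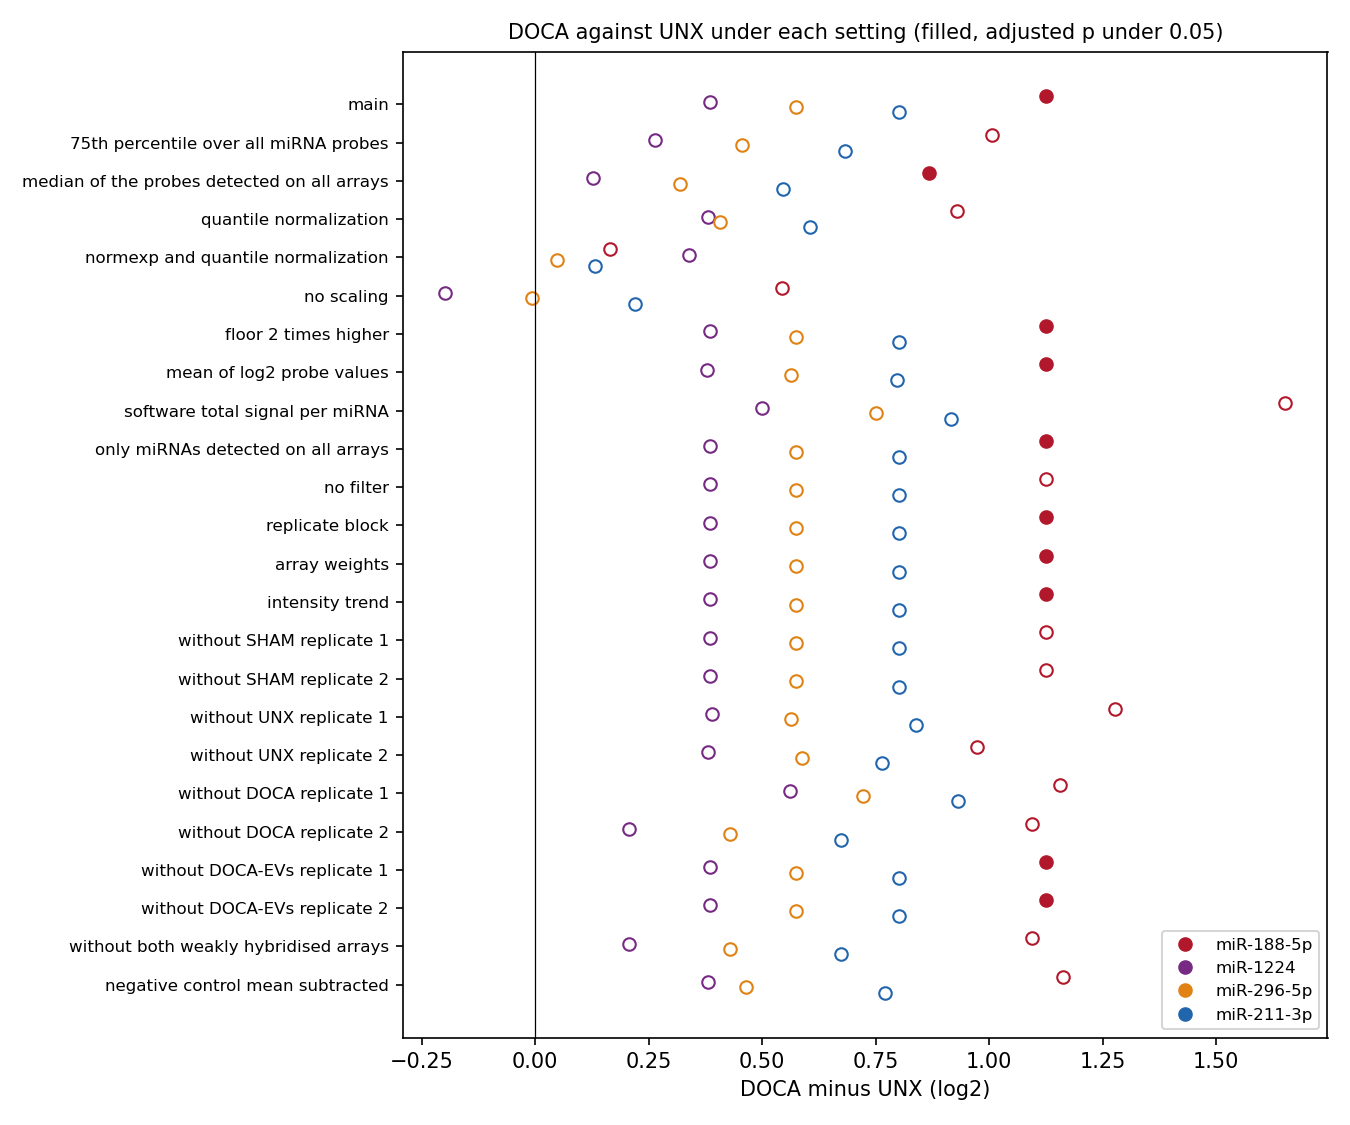
DOCA minus UNX (log2) for each miRNA under the main setting and 23 alternatives, filled where the limma adjusted p was under 0.05. miR-188-5p was positive in all 24 settings, from 0.16 to 1.65, and filled in 10 of them. Its lowest value came with normexp, whose added offset shrinks log2 differences of dim miRNAs.

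miRNAs of other cell types were read beside this comparison. The summed level of 5 leukocyte miRNAs (miR-142-3p, miR-142-5p, miR-223-3p, miR-150-5p and miR-155-5p) was 8.88 to 9.03 in DOCA, 8.10 to 8.14 in UNX, 8.23 in both SHAM arrays and 8.45 to 8.72 in DOCA-EVs. It was thus highest in DOCA and lowest in UNX, as was miR-188-5p. Of these miRNAs, 3 were above background on all arrays and miR-142-5p on none. The sum of 6 kidney tubule miRNAs, of which 5 were above background on all arrays and miR-215 on none, was 12.60 to 12.62 in DOCA, 12.99 to 13.08 in UNX, 12.87 to 12.91 in SHAM and 12.68 to 12.92 in DOCA-EVs. Kidney tubule RNA was thus present on every array, which does not tell cortex from other parts of the kidney, and the tubule sum was lowest in DOCA. The part of cell composition in the results was not tested, and in bulk tissue a change in the number of cells of a type and a change in RNA per cell cannot be told apart. The sum of 4 erythrocyte miRNAs ran from 6.93 to 8.78 within DOCA alone, with 1 of the 4, miR-451-5p, above background on all arrays. The nerve miRNAs miR-124-3p and miR-9a-5p and the liver miRNA miR-122-5p were above background on no array, nor were miR-1-3p and miR-133a-3p of striated muscle, while miR-206-3p was on 7.

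DOCA against SHAM compares treated, nephrectomized rats with rats that kept both kidneys. It shares its arrays with the comparisons used in the choice, so its values are not independent of that choice. miR-188-5p was at least 1.54-fold higher in DOCA (0.62 ± 0.14 on the log2 scale, limma adjusted p = 0.0846). miR-211-3p was at least 1.26-fold higher (0.34 ± 0.16, limma adjusted p = 0.375) and miR-296-5p at least 1.12-fold higher (0.17 ± 0.15, limma adjusted p = 0.550). These bounds allow for background only. The 95% intervals, -0.055 to 0.73 for miR-211-3p and -0.19 to 0.52 for miR-296-5p, include no difference. Neither size was stable, as miR-296-5p was 0.020 higher without DOCA replicate 2, and miR-211-3p was 0.18 higher without SHAM replicate 2 and 0.21 higher without DOCA replicate 2. miR-1224 was 0.13 ± 0.15 lower (limma adjusted p = 0.591), with a 95% interval of -0.50 to 0.25. Hence 0 of 4 passed the threshold by limma, where 0.826% of the 242 were called in either direction, and 1 of the 4, miR-188-5p, had an unadjusted p under 0.05, as had 39 of the 242. With array weights in limma, which gave the SHAM arrays the most weight, miR-188-5p passed at an adjusted p of 0.0389 as 1 of 18 called miRNAs.

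DOCA-EVs against UNX sets the rats given hormone, salt and vesicles against nephrectomy alone. Its arrays were also used in the choice, so its values are not independent of that choice. miR-1224 differed by 0.00 ± 0.15 (95% interval -0.37 to 0.38) and miR-296-5p by -0.02 ± 0.15 (95% interval -0.38 to 0.34) on the log2 scale. miR-188-5p was at least 1.40-fold higher in DOCA-EVs (0.48 ± 0.14, limma adjusted p = 0.209), with its arrays above those of UNX by 0.33 and 0.64. miR-211-3p was at least 1.22-fold higher (0.29 ± 0.16, limma adjusted p = 0.498). These bounds allow for background only, and the 95% interval of miR-211-3p, -0.10 to 0.68, includes no difference. By limma 0 of 4 passed, where 2.48% of the 242 were called in either direction, and 1 of the 4, miR-188-5p, had an unadjusted p under 0.05, as had 31 of the 242.

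DOCA-EVs against SHAM showed miR-1224 lower by 0.51 ± 0.15 on the log2 scale, a fold of 1.43, by 0.45 and 0.57 between the arrays of the same number (limma adjusted p = 0.237). miR-296-5p was at 4.31 in DOCA-EVs and 4.74 in SHAM (limma adjusted p = 0.286), with SHAM not above background, so no fold is given. miR-188-5p differed by -0.02 ± 0.14 (95% interval -0.36 to 0.33) and miR-211-3p by -0.18 ± 0.16 (95% interval -0.57 to 0.22). Again 0 of 4 passed by limma, as did 0% of the 242. At an unadjusted p under 0.05 there were 2 of the 4, miR-1224 and miR-296-5p, and 32 of the 242. The choice of the miRNAs favoured a high SHAM and a low DOCA-EVs group, so nothing is read from that count.

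Each miRNA was read by 2 probes with 8 spots an array, and after scaling both probes gave the same direction as their sum in UNX against SHAM, DOCA-EVs against DOCA and DOCA against UNX. Those of miR-1224 were 0.57 and 0.49 lower in UNX than in SHAM and 0.35 and 0.40 lower in DOCA-EVs than in DOCA, on the log2 scale. For miR-188-5p only levels are given, since its first probe was well above background on 0 spots of the SHAM, UNX and DOCA-EVs arrays. The log2 level of that probe was 3.49 in SHAM, 3.16 in UNX, 4.28 in DOCA and 3.58 for DOCA-EVs, and that of the second probe 4.08, 3.46, 4.59 and 3.99. Before scaling the probes split: the UNX signal was 1.01 times that of SHAM in the first probe of miR-188-5p and 0.814 times in the second. The probes of miR-296-5p split too in DOCA against UNX before scaling, at 1.02 and 0.976 times. Those of miR-211-3p did so in DOCA-EVs against SHAM, at 1.05 and 0.957 times. After scaling, probes split in direction for miR-188-5p in DOCA-EVs against SHAM. In DOCA-EVs against UNX they split for miR-1224, at 0.015 and -0.0035, and for miR-296-5p, at 0.06 and -0.15 on the log2 scale. Probes of a miRNA read the same RNA and are not replicates.

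Co-variation over the 8 arrays was described without a test, since the miRNAs were chosen for their pattern and share each array's scale factor. miR-188-5p and miR-211-3p had the highest Pearson r of the 6 pairs, 0.93, and the highest Spearman rho, 0.98 (n = 8 arrays). Below that the measures ordered the pairs differently. miR-1224 and miR-296-5p had r = 0.90 and rho = 0.74, miR-188-5p and miR-1224 had the lowest r, 0.55, with rho = 0.81, and miR-296-5p and miR-211-3p had the lowest rho, 0.62, with r = 0.84. Without scaling r was 0.78, 0.67, -0.34 and 0.25 for these pairs in that order. Scaled levels correlated with the log2 scale factor at r = -0.89 to -0.80, as the division by that factor builds in, and unscaled ones at -0.25 to 0.38. Within groups, replicate 1 stood on the same side of replicate 2 in 4 of 4 groups for miR-188-5p and miR-211-3p, but in 1 of 4 for miR-296-5p and either of these.

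Among all miRNAs of the fit, those with the highest r over the 8 arrays were named for each member. For miR-188-5p they were miR-211-3p (r = 0.93), miR-21-3p (0.88) and miR-874-3p (0.88). For miR-1224 they were miR-494-3p (0.93), miR-296-5p (0.90) and miR-1249 (0.86). miR-494-3p was above background on all 8 arrays and had an unscaled r of 0.83. For miR-296-5p they were miR-1249 (0.97), miR-328a-5p (0.94) and miR-3085 (0.92), the last above background on 0 arrays. For miR-211-3p they were miR-188-5p (0.93), miR-125a-3p (0.92) and miR-324-3p (0.91), and the r of miR-324-3p fell to 0.18 without scaling.

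Neighbours in the genome, other arms and family members were listed by locus and not by value. Of 17 listed miRNAs, 15 were on the array and 3 were in the fit, miR-532-5p and miR-500-3p of the miR-188 cluster and miR-204-5p, the kidney-expressed relative of miR-211-5p. By limma 0 of the 3 passed the threshold in any of the 6 comparisons, and 0 had an unadjusted p under 0.05. UNX against SHAM and DOCA-EVs against DOCA had 0% of the 242 miRNAs called by limma, with 16 and 25 at an unadjusted p under 0.05. miR-500-3p, above background on all arrays, differed between DOCA and UNX by 0.02 ± 0.13 on the log2 scale (limma adjusted p = 0.948), and miR-532-5p by 0.08 ± 0.26 (limma adjusted p = 0.924). For miR-188-5p that difference was 1.13 ± 0.14. Whether the differences of these neighbours depart from that of miR-188-5p was not tested. miR-500-3p was 0.25 ± 0.13 lower in DOCA-EVs than in DOCA without overlap of the arrays (limma adjusted p = 0.699). The opposite arms miR-188-3p and miR-296-3p were detected on 0 of 8 arrays. miR-211-5p was detected by the software on 1 array and above background on 0, so the arm known as the main product in human melanocytes did not exceed background here while the 3p arm did on 5 arrays. Since probes differ in brightness, these detections do not show which arm was more abundant. miR-204-5p, above background on all 8 arrays, was 0.38 ± 0.17 lower in DOCA-EVs than in UNX (limma adjusted p = 0.391).

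What the 4 share outside the measured levels is a high content of G and C. It was 61.9% in miR-188-5p, 66.7% in miR-1224, 66.7% in miR-296-5p and 65.0% in miR-211-3p, against a median of 47.8% over the 218 miRNAs of the fit with a sequence. In the sequences printed above, miR-1224 is 61.9% G with a longest run of 4 G, miR-211-3p is 50% G and ends in a run of 5 G, and miR-296-5p holds 19.0% G and a run of 7 C that begins in its seed. The richness was thus in G for miR-1224 and miR-211-3p and in C for miR-296-5p. Of the 218 miRNAs, 33 had at least the G and C content of the lowest of the 4, and only 17 of these 33 were above background on all arrays. In UNX against SHAM, 32 of these 33 were lower in UNX with a median of -0.34, and without the 4 chosen miRNAs 28 of 29 were lower with a median of -0.33. Of the 185 others, 107 were lower with a median of -0.06. Some miRNAs of low G and C content fell as much, such as miR-466d (31.8%) at -0.53 and miR-32-3p (31.8%) at -0.55, while let-7f-5p (31.8%) was at 0.21. The log2 scale factor was 0.33 higher in UNX than in SHAM, which lowers scaled values whatever the base composition. Over the 218 miRNAs the difference correlated with G and C content at Pearson r = -0.39 and Spearman rho = -0.43, a relation across miRNAs, which are no independent replicates and share the arrays. In DOCA-EVs against DOCA there was no such lean, with 16 of the 29 other miRNAs of high G and C content lower, a median of -0.01 and r = -0.08 over the 218. In DOCA against UNX, the comparison with the call of miR-188-5p, miRNAs of high G and C content leaned upward. There 7 of the 33 were lower in DOCA, with a median of 0.35 against 0.06 in the 185 others and of 0.22 without the 4, and r = 0.23 and rho = 0.26 over the 218. The parts of base composition, scale factor and signal near background in the values of the 4 miRNAs were not tested.

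**Figure D5:**
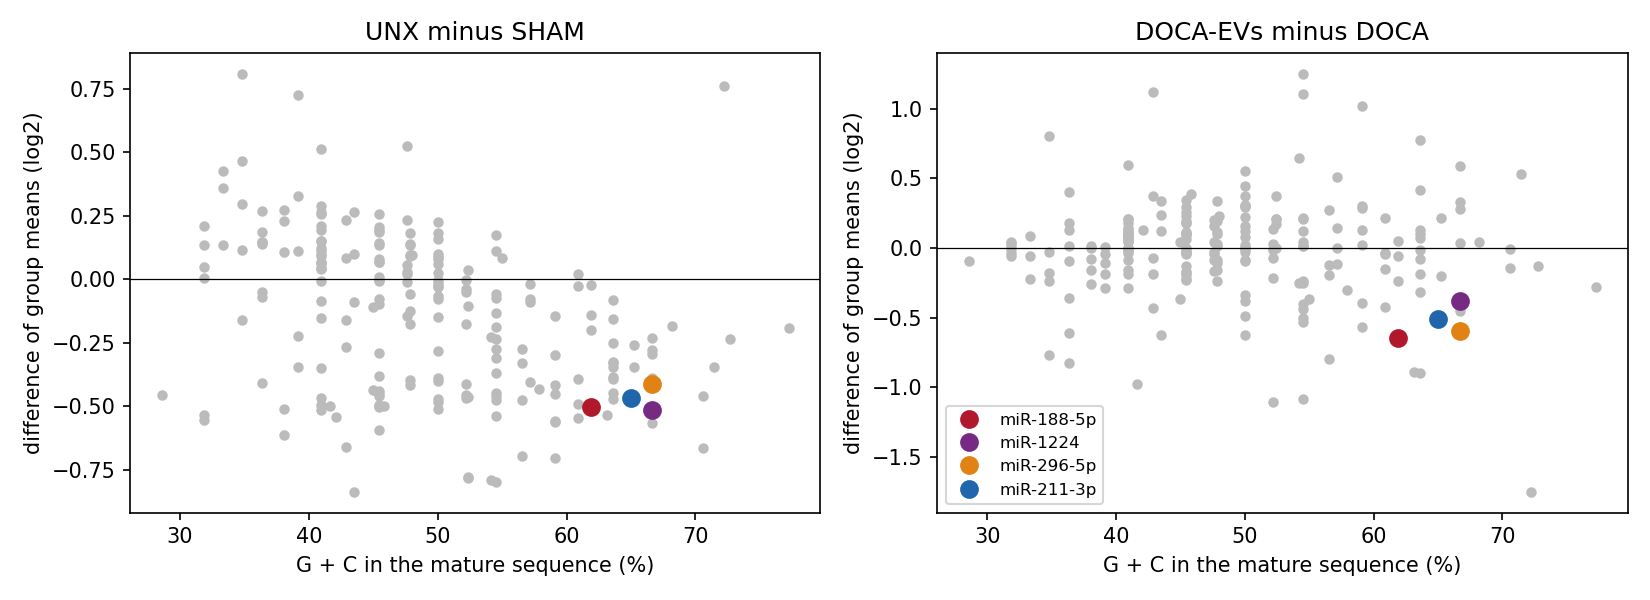
Difference of group means (log2) against the G and C content of the mature sequence for the 218 miRNAs of the fit with a sequence (grey), with the 4 chosen miRNAs in colour. In UNX minus SHAM the points of high G and C content lie almost all below 0, and in DOCA-EVs minus DOCA they lie on both sides while the 4 chosen miRNAs lie between -0.64 and -0.38.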

How the data were processed

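Per the labels' protocols, 100 ng of RNA per array was labelled with Cy3, and RNA of the renal cortex had been extracted with a miRNA kit. The slide, of Agilent design 070154, was read with Feature Extraction 11.5.1.1 per the file headers. In the deposited scanner files each spot has a processed signal, an intensity after background subtraction and before any normalization across arrays. Values of the deposited series table are identical to it (largest difference 0). The software's total signal per miRNA, deposited as an intensity too, and its flags of 0 or 1 (deposited as whole-number scores) for detection, saturation, background and outlying spots were also read. Coordinates of the build in the file headers are not used here.

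Outlier-flagged spots were left out, spots were averaged per probe, arrays were divided by their 75th percentile, probe values under 2.57 (the mean SD of unflagged negative controls) were raised to it, probes were summed, and log2 was taken of these deposited intensities. No spot of a miRNA was saturated. A miRNA detected by the software on every array of at least 1 group entered the fit: 242 of 758, with 516 left out. limma 3.58.1 in R 4.3.3 fitted 1 mean per group with 4 residual and 2.18 prior degrees of freedom. The two-sided p-values were adjusted over all 242 by Benjamini-Hochberg, with a threshold of 0.05. A fold is given as a bound where the lower group was not above background: each of its arrays was set to its dimmest miRNA that exceeded background, unless the miRNA's own level was higher. Such a bound allows for background only and not for the spread between arrays. The fit was tested on simulated data with planted differences larger than any reported for the 4 miRNAs, so that test does not bear on differences of their size. Precision is limited by there being 2 arrays a group.

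The miRNAs, the neighbour and cell-type lists and the tests were chosen with earlier results of these data known. The miRNAs named are the 4 chosen, the 3 closest to each by Pearson r over the arrays, and the listed neighbours and markers. Alternatives covered scaling, background correction, floor, probe summary, filter, replicate block, weights, trend and left-out arrays. The normexp alternative used the median spot signal, because the mean signal it was planned on is not a column of the files used here. It added an offset of 50 units to each corrected signal, which shrinks log2 differences of dim miRNAs. Sequences of 685 of the 758 miRNAs were matched by name to the RefSeq table.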

Additional observations from a re-analysis of the deposited data

How the results depend on the processing

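Over 23 alternatives, DOCA against UNX kept its call of miR-188-5p in 9 and lost it in 14, where 0 of 4 miRNAs passed. Its difference was then 1.01 with the percentile over all probes, 0.93 with quantile normalization, 0.16 with normexp and quantile normalization, 0.54 without scaling, 1.65 with the software's total signal, 1.13 without a filter, 1.09 without both weakly hybridised arrays and 1.16 with the negative control mean subtracted (an alternative chosen after seeing the data). Leaving out 1 array in turn gave counts of 0 to 1 and a difference of 0.97 to 1.28. Replicate numbers are slide rows, and deviations from the group means of same-numbered arrays correlated at 0.24 to 0.56 over the 6 pairs of groups. With the replicate block 1 of 4 was called in DOCA against UNX (miR-188-5p, limma adjusted p = 0.0259) and 0 of 4 in the 3 other tested comparisons, so the block changed no call. In DOCA against SHAM the count was 1 with array weights (0.62 for miR-188-5p) and 0 in the 22 others. In both other tested comparisons it was 0 in all 23. Without scaling, DOCA minus UNX turned to -0.20 for miR-1224 and -0.0064 for miR-296-5p. DOCA minus SHAM turned for miR-1224 to 0.072 with the percentile over all probes and ranged from -0.31 to 0.048 without 1 array in turn (0.048 without DOCA replicate 1), and for miR-296-5p to -0.056 with the median of detected probes and -0.090 without scaling. DOCA-EVs minus UNX, near 0 for miR-1224, turned to -0.12 with the percentile over all probes, -0.12 with the median, -0.14 without scaling, -0.0020 with the total signal, -0.0022 without UNX replicate 2, -0.0039 without DOCA-EVs replicate 2 or both weak arrays (range without 1 array in turn -0.0039 to 0.0087) and -0.00077 with negative controls subtracted. For miR-296-5p it turned to 0.061 without DOCA-EVs replicate 2 or both weak arrays (range without 1 array in turn -0.10 to 0.061). DOCA-EVs minus SHAM turned for miR-188-5p to 0.18 (all probes), 0.13 (quantile), 0.0074 (normexp), 0.17 (no scaling) and 0.20 (total signal), and for miR-211-3p to 0.022 (all probes) and 0.012 (no scaling). The cause of these turns was not tested. Scaling also moved the calls over all 242 miRNAs in DOCA against UNX, from 3 higher and 1 lower to 2 and 1 with all probes, 5 and 15 with the median, 0 and 1 with quantile, 0 and 6 with normexp and 0 and 0 without scaling. Signal near background limits miR-188-5p, miR-296-5p and miR-211-3p. Under normexp the added offset of 50 units by itself shrinks the log2 differences of these dim miRNAs.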
